A study of Mus musculus with 16 samples.

Results

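The alpha-defensin cluster of mouse chromosome 8 was described here as 46 genes out of the 45513 in the count files. They were chosen by name and position: every gene whose symbol begins with Defa, and every gene named Gm with digits on chromosome 8 whose lowest exon start (GRCm38) lies in a window that opens at 21000000 and closes shortly after the last exon of Defa24. Of 65 genes that met this, 46 had at least 10 counts summed over the 16 libraries, and 19 had fewer, 7 of them with no count at all. The least counted member, Gm15314, had 18 counts, and the most counted gene left out, Gm24568, had 7. The 46 genes lay between positions 21025545 and 21735471, a span of 709927 bases, 41 on the + strand and 5 on the - strand.

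Alpha-defensins are small cationic peptides that kill bacteria by disrupting their membranes. In the mouse small intestine they are made almost solely by Paneth cells, the granular secretory cells at the crypt base, where they are also called cryptdins. Each is translated as a precursor with a signal peptide, an acidic propiece and, at the carboxyl end, the mature peptide with its conserved cysteines, and in the mouse the propiece is removed by the metalloproteinase matrilysin (Mmp7). The genes arose by repeated local duplication, so that many copies are nearly identical, and a related branch, the cryptdin-related sequences, carries a different, cysteine-rich carboxyl end.

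The libraries came from the small intestine of 8 mice that all carried Atoh1(WT)CreERT2 and the R26R tdTom reporter and had all received tamoxifen, at 1 mg per day on 3 days per the labels. By the methods of the study they were adult males and females of C57BL/6 background. Those methods took cells from the proximal small intestine, pooled the fractions enriched in crypts and left out the one enriched in villi. CreERT2, a recombinase that acts only with tamoxifen, is made from the Atoh1 locus, and Atoh1 is the transcription factor of secretory commitment, so a recombined cell and its descendants stay red (tdTom+). From each mouse live EpCAM+tdTom+ and EpCAM+tdTom- cells were sorted, EpCAM being a surface protein of epithelium, which gave 8 libraries of each fraction. Cells of untreated mice were not among the samples. The total assigned counts ranged from 17116405 to 25323567 per tdTom+ library and from 18104859 to 24842314 per tdTom- library. Atoh1 itself, the check of the sort, ran from 47.9 to 80.0 CPM (counts scaled to a common library size) in tdTom+ and from 0.502 to 1.25 in tdTom-, and the groups did not overlap. The sum of the 6 Paneth markers Lyz1, Mptx2, Ang4, Pla2g2a, Mmp7 and Itln1 ran from 27915 to 68131 CPM in tdTom+, that of 8 goblet markers from 127950 to 263906 CPM, and no marker of either list was at 0, so that tdTom+ held transcripts of both kinds of cell.

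The coding ends of 8 members are printed to show how alike the copies are and where they differ, since this decides what a short read can tell. Each line gives the last 120 bases of the coding sequence, stop codon included, from GENCODE M21 (GRCm38), 5′ to 3′, with every in-frame cysteine codon in capitals. Defa24 and Defa30 were the most abundant members, Defa23 and Defa3 each have a copy with the same coding sequence (Defa31 and Defa17), Defa20 and Defa21 belong to the members whose share varied most between mice among those with at least 1% of the cluster sum, Defa25 had the smallest change among coding members, and Gm14851 stands for the cryptdin-related type.
Defa24: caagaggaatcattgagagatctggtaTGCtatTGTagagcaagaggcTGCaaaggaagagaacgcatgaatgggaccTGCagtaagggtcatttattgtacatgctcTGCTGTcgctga
Defa30: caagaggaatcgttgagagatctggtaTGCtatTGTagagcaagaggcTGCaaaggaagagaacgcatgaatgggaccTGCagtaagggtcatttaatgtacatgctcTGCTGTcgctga
Defa23: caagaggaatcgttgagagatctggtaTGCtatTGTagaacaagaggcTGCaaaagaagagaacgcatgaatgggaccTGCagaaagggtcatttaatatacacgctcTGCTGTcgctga
Defa3: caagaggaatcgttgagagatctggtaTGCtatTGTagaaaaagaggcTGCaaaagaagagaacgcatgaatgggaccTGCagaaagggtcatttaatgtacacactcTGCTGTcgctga
Defa20: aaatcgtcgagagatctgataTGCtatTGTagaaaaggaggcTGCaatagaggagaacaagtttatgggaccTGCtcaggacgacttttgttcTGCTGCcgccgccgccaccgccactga
Defa21: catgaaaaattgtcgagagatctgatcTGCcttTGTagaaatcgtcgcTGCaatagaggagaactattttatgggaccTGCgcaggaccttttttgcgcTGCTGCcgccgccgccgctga
Defa25: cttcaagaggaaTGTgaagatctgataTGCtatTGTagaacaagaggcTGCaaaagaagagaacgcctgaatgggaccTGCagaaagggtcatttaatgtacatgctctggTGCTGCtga
Gm14851: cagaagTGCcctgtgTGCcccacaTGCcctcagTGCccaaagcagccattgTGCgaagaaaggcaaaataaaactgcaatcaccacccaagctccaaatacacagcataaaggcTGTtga

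By the annotation, 27 of the 46 members were protein coding, 9 were defensin pseudogenes with Defa-ps names, 1 (Gm15313) was an unprocessed pseudogene and 9 were processed pseudogenes with Gm names. The 27 coding sequences held 92 to 116 codons before the stop and only 19 distinct coding ends. In 20 of them there were 6 cysteine codons, in 3 there were 7, and in 4 (Gm14851, Defa29, Gm7849 and Gm7861) there were 11. The 5 coding members with Gm names are listed in RefSeq under defensin symbols: Gm14851 is Defa38, Gm15292 is Defa40, Gm15293 is Defa41, Gm7849 is Defa42 and Gm7861 is Defa43. Over the 351 pairs of coding members, identity of the coding sequences ranged from 63.2% to 100%, with a median of 82.9%, and 6 pairs were identical. Defa30 and Defa24 differed at 4 coding positions, C72T, T154G, G174A and A259T, counted from the first base of the start codon with the Defa30 base first. Defa21 and Defa22 differed at T114G and T204A, with the Defa21 base first.

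Reads of 50 bases were counted by gene, so each member's transcripts in GENCODE M21 were divided into all their 50-base stretches. Each stretch was looked up in every annotated transcript. The start and end in the count files were the same as in M21 for 40 of the 46 members. Defa36, for example, had 371 distinct stretches in M21 but 282 counted exon bases. The shares of unique stretches thus describe the M21 transcripts and only approximately the counted exons. For 10 members no stretch was unique to the gene, among them Defa31, whose stretches all occur in Defa23, Gm7849, whose stretches all occur in Gm7861, and Defa2, Defa33, Defa20, Defa32 and Defa37. Defa24 was the best resolved of the abundant members, with 71.9% of its stretches unique, followed by Defa29 with 56.6%, Defa30 with 47.6% and Gm14851 with 44.4%. Defa17 (8.05%), Defa3 (7.76%) and Defa23 (5.25%) were nearly unresolved. None of the stretches of the 31 Defa members or of the 5 coding Gm members occurred in a gene outside the cluster, if AY761184, a coding gene within it, is counted in. Counts of copies with identical coding sequences were close to each other in some pairs and not in others. Close pairs had summed tdTom+ counts of 1408005 for Defa23 and 1404086 for Defa31, of 733858 for Gm7849 and 755051 for Gm7861, and of 145727 for Defa2 and 145198 for Defa33. Further apart were Defa3 with 1487052 and Defa17 with 1625948, Defa36 with 285127 and Defa37 with 371817, and Defa20 with 274759 and Defa32 with 171226. The counted exon length differed within some of these pairs. It was 282 bases for Defa36 and 403 for Defa37, which per kb had 6150 and 5619 CPM in tdTom+. For Defa2 and Defa33 it was 288 and 333 bases, with 3085 and 2657 CPM per kb in tdTom+. Defa20 and Defa32 both had 425 bases. How the aligner divided reads between such copies was not tested. Values of single members are therefore read beside the cluster sum. They are also read beside families of members that share at least 50% of the stretches of the shorter one.

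**Figure D1:**
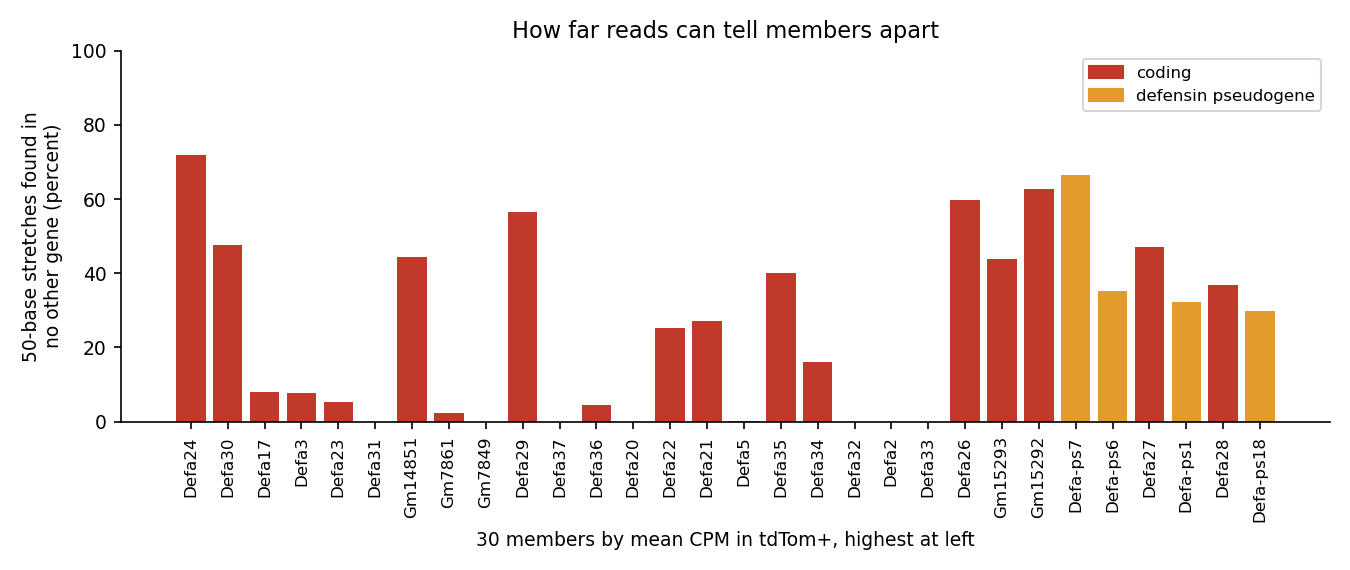
Percent of the 50-base stretches of each member that occur in no other annotated gene, for the 30 members other than processed pseudogenes with the highest mean CPM in tdTom+, in falling order of CPM; red bars are coding genes and orange bars defensin pseudogenes. Defa24 stands at 71.9%, while Defa31, Gm7849, Defa37, Defa20, Defa32, Defa2 and Defa33 have no bar because no stretch was unique to them.

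The comparison of tdTom+ with tdTom- asked which transcripts mark the secretory lineage, and the cluster as a whole was among the most abundant products of tdTom+ cells. The summed counts of the 46 members made up 8.27% of all assigned counts in the lowest tdTom+ library, a median of 9.996% and 19.7% in the highest. In tdTom- they made up 0.0570% to 0.0882%. As CPM scaled by the trimmed mean of M-values (TMM), the sum was 109623, 100841, 90052, 132567, 76853, 111476, 211054 and 99603 in the tdTom+ libraries of mice 1 to 8, and 678, 662, 593, 824, 567, 747, 755 and 674 in their tdTom- libraries. The groups were far apart in every mouse, with a mean of 116509 ± 41530 CPM in tdTom+ and 688 ± 85.2 CPM in tdTom- (SD, n = 8 each), a log2 ratio of the means of 7.40. Mouse 7 stood apart within tdTom+, and without it the mean was 103002 ± 17595 CPM and the log2 ratio 7.25. In bulk RNA of sorted cells, more Paneth cells in a fraction and more RNA per cell cannot be told apart.

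**Figure D2:**
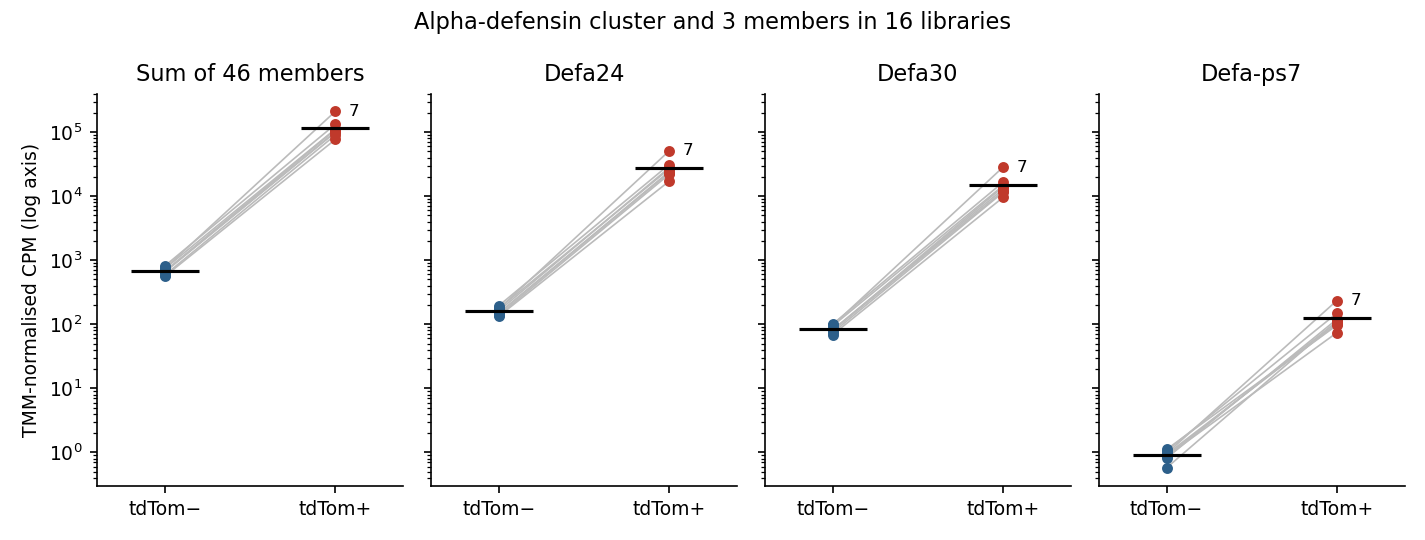
TMM-normalised CPM (log axis) of the summed 46 members and of Defa24, Defa30 and the pseudogene Defa-ps7 in the 8 tdTom- (blue) and 8 tdTom+ (red) libraries; grey lines join the libraries of a mouse, black bars are means, and the number marks the mouse with the highest tdTom+ value. In each panel all tdTom+ points lie above all tdTom- points, and mouse 7 is highest, at 211054 CPM for the sum.

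Of the 46 members, 37 passed the expression filter and were tested, and 35 of them were called higher in tdTom+ (edgeR quasi-likelihood test, Benjamini-Hochberg adjusted p below 0.01), where 22.7% of the 15323 tested genes were called higher. No member was called lower, where 27.0% of all tested genes were; by the same test none was lower at an unadjusted p below 0.05, and by DESeq2 none was called lower. All 27 coding members and all 8 tested Defa-ps members were called, and both tested processed pseudogenes were not. In 37 of the 46 members every tdTom+ library lay above every tdTom- library, a pattern found in 14.6% of all tested genes, and these 37 were the 35 called members and the untested Defa-ps8 and Gm15313. Of these 37, 7 had under 10 counts in tdTom- and met the count minimum of the list only through tdTom+. For those 7 the choice of members itself favoured a higher tdTom+ level. Calls of members that share most of their stretches are not separate evidence. The median log2 fold change of the 37 tested members was 7.42, beside 0.01 for all tested genes, and the 35 called members ranged from 5.70 to 7.92 with standard errors from 0.20 to 0.46. A log2 fold change of 5 or more was found in 35 of the tested members and in 1.12% of all tested genes, and 34 members were among the 100 genes with the largest fold change. With the mouse as a block the same 35 members were called.

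**Figure D3:**
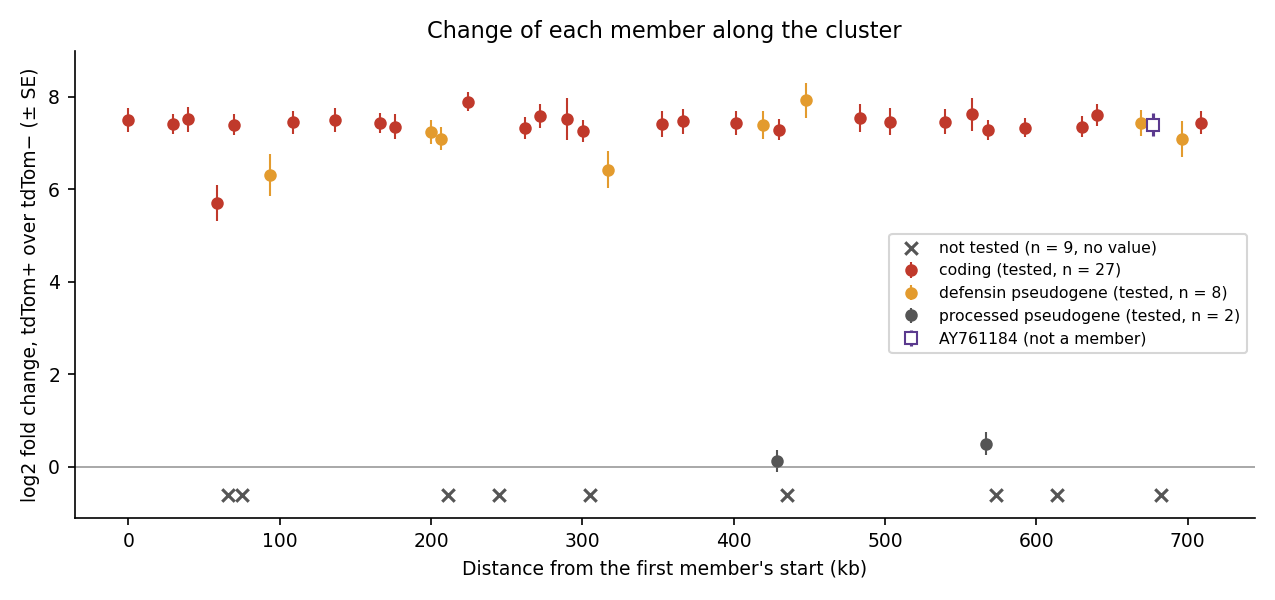
Log2 fold change of tdTom+ over tdTom- (edgeR, ± SE) of each tested member against its distance in kb from the start of the first member; colours give the annotated class, the open square is the coding gene AY761184, which is not a member by its name, and crosses mark the 9 members that were not tested. The 26 coding members other than Defa25 lie between 7.26 and 7.90 along the whole span, while the 2 processed pseudogenes among them lie at 0.13 and 0.51.

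Defa24 (chr8:21734494-21735471, + strand), the last member along the chromosome, was the most abundant. It ranged from 17131 to 50826 CPM in tdTom+, with a median of 25343, and from 134 to 196 CPM in tdTom-, with a median of 157. Its log2 fold change was 7.44 ± 0.25 (SE; edgeR adjusted p = 1.92e-14), and the groups did not overlap. Per kb of exon its mean level was 66499 CPM in tdTom+, beside 383 in tdTom-.

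Defa30 (chr8:21134642-21135598, + strand), whose coding end is printed beside that of Defa24 above, came second per kb, at 37338 CPM per kb in tdTom+. It ranged from 9528 to 28276 CPM in tdTom+ and from 69.0 to 101 CPM in tdTom-, with medians of 13386 and 81.2, and did not overlap between groups. Its log2 fold change was 7.45 ± 0.25 (edgeR adjusted p = 1.91e-14).

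Next in level were the 2 pairs with identical coding sequences. Defa17 and Defa3 had 24967 and 22100 CPM per kb in tdTom+, and Defa31 and Defa23 had 22641 and 20813. As pairs, Defa3 with Defa17 summed to 18973 CPM in tdTom+ and 117 in tdTom-, and Defa23 with Defa31 to 17090 and 99.4. Their log2 fold changes were 7.33 ± 0.23 for Defa3, 7.36 ± 0.23 for Defa17, 7.42 ± 0.22 for Defa23 and 7.43 ± 0.21 for Defa31, which differ from each other by less than their standard errors.

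The 4 members of the cryptdin-related type were also abundant. Gm14851 (RefSeq Defa38; chr8:21095074-21096050, - strand) stood at 19278 CPM per kb in tdTom+, below the lowest of the pairs above, and ranged from 4284 to 11847 CPM in tdTom+ against 33.9 to 46.2 in tdTom-, a log2 fold change of 7.40 ± 0.23. Gm7849 (RefSeq Defa42) had 9151 CPM per kb and a log2 fold change of 7.29 ± 0.23, and its copy Gm7861 had 9077 CPM per kb. The summed share of the 4 in the cluster was 17.4% ± 1.27 in tdTom+ and 18.4% ± 0.613 in tdTom- (SD, n = 8 each), and was higher in tdTom- in 5 of 8 mice. This difference was not tested. All 4, with Defa-ps7, are the members on the - strand.

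At the upper end of the fold changes, Gm15292 (RefSeq Defa40) ranged from 209 to 488 CPM in tdTom+ and from 1.05 to 1.61 CPM in tdTom-, a log2 fold change of 7.90 ± 0.20 (edgeR adjusted p = 6.56e-16). Its tdTom+ order was unlike that of the cluster, since mouse 1 was highest and mouse 7 second at 404 CPM. Defa28 had 7.62 ± 0.35 at a level of 12.0 to 34.0 CPM in tdTom+, and Defa34 had 7.61 ± 0.24 at 796 to 2243 CPM. The largest fitted value, 7.92 ± 0.37 for the pseudogene Defa-ps17, rested on 474 counts in tdTom+ and 1 count in tdTom-. The ratio of these sums was 480, with an exact 95% binomial interval from 85.8 to 19006 that covers counting error only.

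The 3 called members with a log2 fold change under 7 were those with 2 to 6 counts in all of tdTom-. Defa25 (chr8:21084442-21085285, + strand), whose coding end above holds 7 cysteine codons, had 357 counts in tdTom+ and 6 in tdTom-, with 1.23 to 3.50 CPM in tdTom+ and at most 0.104 CPM in tdTom-. Its log2 fold change was 5.70 ± 0.38 (edgeR adjusted p = 4.40e-10), and the ratio of its sums was 60.3 with an exact 95% interval from 27.4 to 165. Defa-ps4 had 233 and 2 counts, a log2 fold change of 6.32 ± 0.45 and a ratio of 118 with an interval from 32.3 to 980. Defa-ps16 had 426 and 4 counts and a ratio of 108, from 41.8 to 398.

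The defensin pseudogenes carried the same direction as the coding genes at a low level. The 9 Defa-ps members summed to 321 CPM in tdTom+ and 2.13 CPM in tdTom-, 0.276% of the cluster sum in tdTom+. Defa-ps7 and Defa-ps6, the most counted, had 20233 and 17727 counts in tdTom+ and log2 fold changes of 7.10 ± 0.25 and 7.24 ± 0.26. Of the stretches of Defa-ps7, 66.4% were unique to it, and of those of Defa-ps6, 35.2%. Stretches were matched exactly, and whether reads of coding members with a mismatch were placed on these pseudogenes was not tested. The untested Defa-ps8 had 46 counts in tdTom+ and 1 in tdTom-, and Gm15313, with which it shares all its stretches, had 64 and 1.

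The 9 processed pseudogenes that lie between the defensin genes did not show this pattern. Together they had 430 counts in tdTom+ and 372 in tdTom-, and no 50-base stretch was shared between them and any other kind of member, while 2.94% to 14.6% of their stretches occurred in genes outside the cluster. All stretches of Gm15309 occur in Gm15312, so that these 2 are not resolved from each other. Gm15309 had 5 to 27 counts per tdTom+ library and 8 to 17 per tdTom- library, with a log2 fold change of 0.13 ± 0.24 (edgeR adjusted p = 0.679). Gm15312 had 7 to 26 and 4 to 17 counts, with 0.51 ± 0.25 (edgeR adjusted p = 0.0954). The other 7 were not tested, and the most counted of them, Gm7869 and Gm6689, had 65 and 58 counts in tdTom+ and 67 and 49 in tdTom-. For all 9 the ranges of the fractions overlapped.

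The make-up of the cluster sum was much alike in all mice and in both fractions. Defa24 gave 23.9% ± 0.885 of the sum in tdTom+ (SD, n = 8), from 22.3% to 25.4%, and 22.0% to 24.1% in tdTom-. The members formed 27 sequence families, of which 11 gave at least 1% of the sum each and 98.7% together. In these 11 the coefficient of variation of the share over the 8 tdTom+ libraries had a median of 6.75% and ran from 3.67% for Defa3 with Defa17 to 32.5% for Defa2, Defa33, Defa20 and Defa32. In tdTom- the median was 5.19%, and the value was lower than in tdTom+ for all 11 families.

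Defa20, Defa21 and Defa22 were the members with the most variable share among those with at least 1% of the sum. Defa20 gave 0.753% to 2.09% of the sum in tdTom+, with a median of 1.57%, and 0.989% to 1.61% in tdTom-. Defa21 gave 0.887% to 1.95% in tdTom+ and Defa22 0.903% to 1.91%. The families they belong to varied alike. The share of Defa2, Defa33, Defa20 and Defa32 in tdTom+ was 4.61%, 4.33%, 2.78%, 2.68%, 5.41%, 2.102%, 4.04% and 5.45% in mice 1 to 8, and that of Defa21 with Defa22 was 2.61%, 2.98%, 1.99%, 2.01%, 3.86%, 1.79%, 2.63% and 3.45%. Mice 5 and 8 were highest and mouse 6 lowest in both, although the families are not linked by shared stretches at the limit used. In tdTom- of the same mice the first family gave 3.20%, 4.31%, 4.07%, 3.99%, 3.02%, 3.57%, 3.18% and 3.74%, so that mouse 5 was lowest there. These values describe a group of members picked out after its values were seen and were not tested.

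The sum of the absolute differences in share over the 46 members, divided by 2, measures how far 2 libraries differ in make-up, from 0 for the same make-up to 100 for no member in common. Between tdTom+ libraries of different mice this distance was 4.34 ± 1.59 percentage points (SD over 28 pairs), and between tdTom- libraries 2.92 ± 0.408 (28 pairs). From a tdTom- library to the tdTom+ library of the same mouse it was 4.35 ± 1.43 (8 pairs), and to those of other mice 4.05 ± 1.16 (56 pairs), values that share libraries and were not tested. Of the 8 tdTom- libraries, 1 (mouse 2) was nearer to its own tdTom+ library than to the mean tdTom+ make-up.

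**Figure D4:**
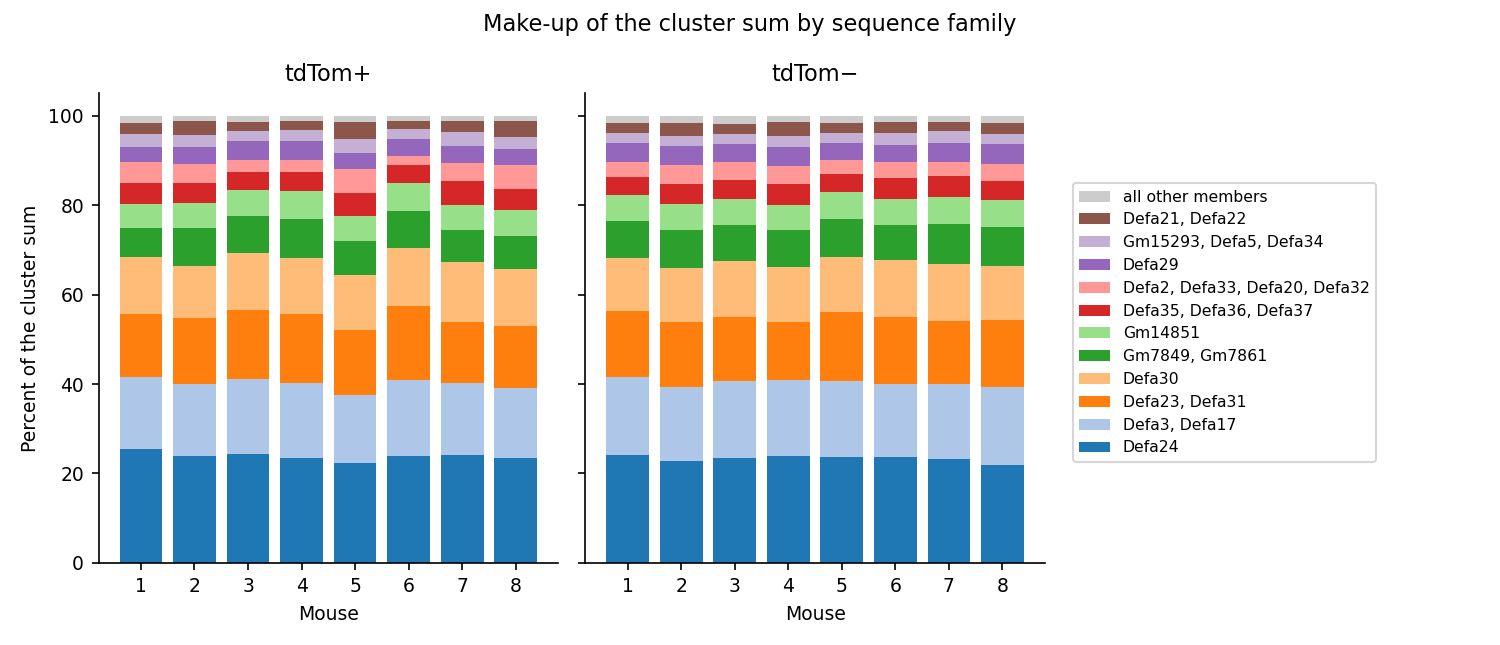
Percent of the cluster sum given by the 11 sequence families with at least 1% of the sum, and by all other members, in the tdTom+ (left) and tdTom- (right) library of each mouse; each bar sums to 100. Defa24 is the bottom block at 22.3% to 25.4% in tdTom+, and the family of Defa2, Defa33, Defa20 and Defa32 spans 2.102% to 5.45% in tdTom+ and a narrower range in tdTom-.

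The level left in tdTom- was a similar small share of the tdTom+ level in the better counted members. For the 26 called members with over 100 counts in tdTom-, the mean in tdTom- was 0.418% to 0.724% of the mean in tdTom+, with a median of 0.579%. Several of these share most or all of their stretches, so they are not separate values. Among called members with fewer counts, Defa-ps17 stood at 0.180% on 1 tdTom- count and Defa25 at 1.65% on 6. All 8 tdTom- libraries held counts of 28 of the 35 called members. Other Paneth genes fell in the same range, 0.571% for Lyz1 (lysozyme), 0.557% for Mmp7, 0.584% for Itln1 and 0.480% for Mptx2. So did several goblet genes, 0.534% for the mucin Muc2, 0.567% for Zg16 and 0.662% for Fcgbp, while Agr2 stood at 1.397% and the transcription factor Spdef at 0.930%. By mouse, the tdTom- sum of the cluster was 0.358% of the tdTom+ sum in mouse 7 and 0.619% to 0.738% in the other 7. Where the tdTom- level came from was not tested.

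**Figure D5:**
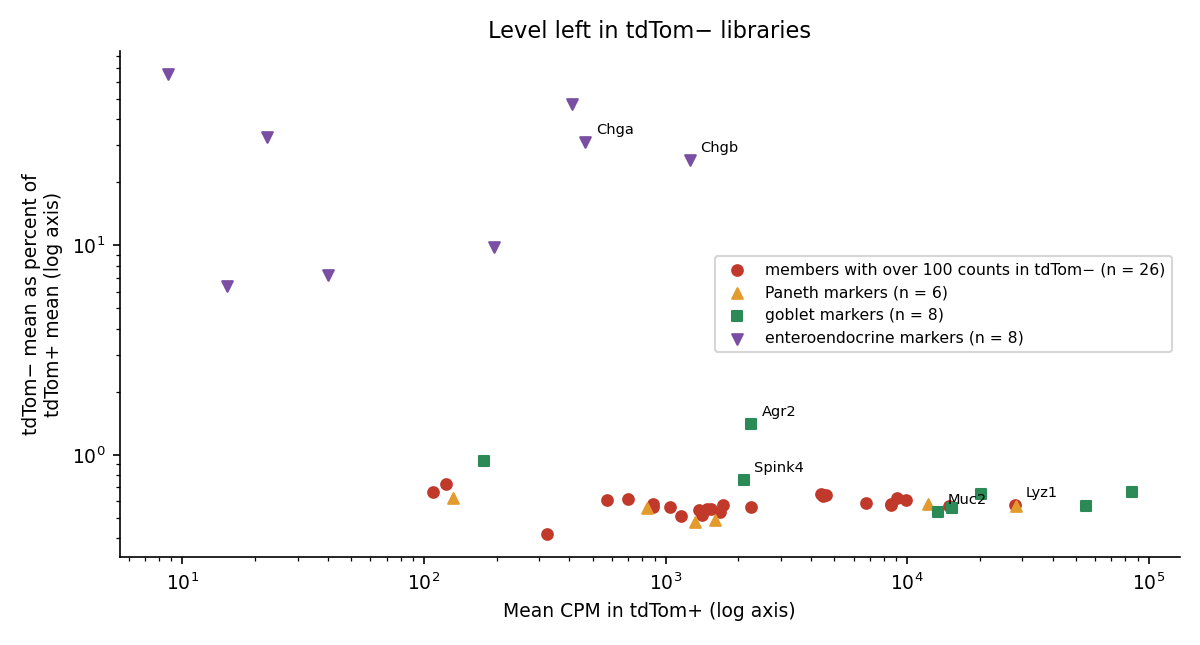
Mean tdTom- level as percent of the mean tdTom+ level (log axis) against the mean tdTom+ CPM (log axis) for the 26 called members with over 100 counts in tdTom- (red) and for Paneth, goblet and enteroendocrine markers with over 100 counts. The members lie between 0.418% and 0.724%, among the Paneth markers and most goblet markers, and the enteroendocrine markers lie higher.

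Between mice the cluster and most of the 6 Paneth markers had the same highest and lowest mouse. In tdTom+ mouse 7 was highest and mouse 5 lowest for the cluster sum, for Lyz1 (41688 and 17044 CPM), for Mmp7 (1588 and 634), for Itln1 (20006 and 7676), for Ang4 (2381 and 1006) and for Pla2g2a (234 and 102). Mptx2 was also highest in mouse 7, at 2233 CPM, but lowest in mouse 8, at 769 CPM, and stood at 1453 CPM in mouse 5. The cluster sum was 3.46 to 5.06 times the Lyz1 level in tdTom+ and 3.89 to 4.95 times in tdTom-, highest in mouse 7 in tdTom+. The 8 goblet markers were mixed. Zg16 (29061 CPM), Tff3 (13137) and Clca1 (9501) were lowest in mouse 7, as was the sum of the 8, whereas Spink4 was highest there, at 2967 CPM, Muc2, Agr2 and Spdef were lowest in mouse 6 and Fcgbp in mouse 5. The sum of 8 absorptive markers such as Alpi had the reverse extremes in tdTom+, highest in mouse 5, at 6014 CPM, and lowest in mouse 7, at 1561 CPM. The part of the mixture of cells in the mouse-to-mouse spread of the cluster was not tested.

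Of 28 companion genes of Paneth granules, their processing and their regulation, 27 were tested, 17 were called higher, 3 lower and 7 not called. Of all tested genes, 22.7% were called higher and 27.0% lower. The median log2 fold change of the tested companions was 1.39, beside 0.01 for all tested genes. Mmp7, the processing enzyme of the alpha-defensins, rose with a log2 fold change of 7.48 ± 0.26 and ran from 634 to 1588 CPM in tdTom+ and from 2.71 to 6.38 CPM in tdTom-. The antimicrobial granule genes Lyz1 (7.45 ± 0.22), Lyz2 (7.42 ± 0.21) and Ang4 (7.68 ± 0.22), a ribonuclease, rose by as much as the members. So did Pla2g2a (7.32 ± 0.22), a phospholipase gene annotated as a polymorphic pseudogene, and Itln1, a lectin, Mptx1 and Mptx2. Lyz2 also stood in a list of 9 immune markers, of which 7 were tested, 1 (Lyz2) was called higher and 3 lower. Whether its reads could be told from those of Lyz1 was not tested. Reg3b, a C-type lectin of enterocytes as well as Paneth cells, fell by 2.23 on the log2 scale (SE 0.45, edgeR adjusted p = 2.68e-04), with 85.0 to 937 CPM in tdTom+ and 582 to 3750 CPM in tdTom-. Reg3g, its neighbour in function, had -0.99 ± 0.36 and was not called (edgeR adjusted p = 0.0247), but passed with the mouse as a block (edgeR adjusted p = 2.14e-05).

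Genes that regulate Paneth cells had smaller fold changes than the called members other than Defa25, Defa-ps4 and Defa-ps16. The transcription factors Spdef (6.74 ± 0.15), Bhlha15 (5.67 ± 0.23) and Gfi1 (5.49 ± 0.16) and the ligand Wnt3 (4.44 ± 0.20) rose, as did Ephb3 (1.99 ± 0.22), Sox9 (1.39 ± 0.19) and Xbp1 (1.13 ± 0.07), a factor of the secretory endoplasmic reticulum. Fzd5, a Wnt receptor, fell by 0.77 (SE 0.06), and the zinc transporter Slc30a2 also fell, with 26.6 to 35.1 CPM in tdTom+ and 44.6 to 85.1 CPM in tdTom-. The bacterial sensor Nod2 had 0.07 ± 0.21 and its kinase Ripk2 -0.07 ± 0.13, neither called. Of the autophagy genes, Atg7 rose by 0.81 ± 0.08, whereas Atg5 (-0.12 ± 0.06) and Atg16l1 (-0.20 ± 0.07) were not called.

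The tested neighbours of the cluster on the chromosome showed no such fold changes, with 1 exception that is itself an alpha-defensin gene. Of 74 other genes whose start lies between 20000000 and 23000000, 23 were tested. Among these, 2 were called higher and 11 lower, where 22.7% and 27.0% of all tested genes were. The first of the 2 was AY761184 (RefSeq Defa39; chr8:21702519-21703645), which lies within the cluster, has a coding sequence 96.9% identical to that of Gm14851 and was left out of the members by its name alone. It ranged from 4394 to 13175 CPM in tdTom+ and from 34.0 to 58.2 CPM in tdTom-, a log2 fold change of 7.40 ± 0.25. The other, Polb, a DNA polymerase, rose by 0.31 ± 0.08. Leaving AY761184 aside, the neighbours ranged from -2.16 for the kinase gene Nek3 to 0.55. Of the 43 beta-defensin genes, the other large family of defensins, 4 had any count, and none passed the expression filter. Defb1 had 117 counts in tdTom+ and 2 in tdTom- and was the 1 beta-defensin that DESeq2, run without the filter, called.

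Upstream sequence was held for 16 members. Defa24, Defa17 and Defa3, which ranked 1, 3 and 5 per kb in tdTom+, were not among them. The letters of a few known motifs were looked up in the 250 bases before the RefSeq starts of the 16 (GRCm38.p6), on both strands. The 16 stretches comprised 11 distinct sequences, so they are copies and not independent examples. TATAAA, the letters of a TATA box, was found in 15 of 16, against 12.4% of the 32851 mouse promoters of the table. CTTTGAT, the core letters bound by TCF factors of the Wnt pathway, was found in 13 of 16, against 3.21%. CAGATG, letters of an E-box as read by basic helix-loop-helix factors such as Atoh1, was found in 11 of 16, against 14.4%, while CAGCTG was found in 1, against 13.0%. The RefSeq starts do not lie at matching places in the copies. TATAAA began 29 bases before the start in Defa32, 61 in Defa30 and 74 in Gm15293, where 43 bases of the window lay in an annotated exon. Letters missing from a window can therefore lie just outside it. Printed are Defa21 and Defa23, whose TATAAA begins 31 and 33 bases before the start, and Defa28, the 1 member of the 16 without these letters in the window, with the TATA letters, the E-box letters that 11 of them hold and the TCF letters (as their reverse complement) in capitals. They lie on the + strand at chr8:21025295-21025544, chr8:21054790-21055039 and chr8:21582777-21583026.
Defa21: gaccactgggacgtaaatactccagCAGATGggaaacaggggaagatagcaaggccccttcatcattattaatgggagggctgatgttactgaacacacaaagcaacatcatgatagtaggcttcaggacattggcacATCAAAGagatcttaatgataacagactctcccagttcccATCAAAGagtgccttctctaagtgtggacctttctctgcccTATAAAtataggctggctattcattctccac
Defa23: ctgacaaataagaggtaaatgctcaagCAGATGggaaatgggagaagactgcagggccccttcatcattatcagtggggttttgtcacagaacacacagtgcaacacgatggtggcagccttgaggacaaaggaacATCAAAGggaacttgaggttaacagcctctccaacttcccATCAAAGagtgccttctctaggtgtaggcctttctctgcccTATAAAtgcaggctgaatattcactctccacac
Defa28: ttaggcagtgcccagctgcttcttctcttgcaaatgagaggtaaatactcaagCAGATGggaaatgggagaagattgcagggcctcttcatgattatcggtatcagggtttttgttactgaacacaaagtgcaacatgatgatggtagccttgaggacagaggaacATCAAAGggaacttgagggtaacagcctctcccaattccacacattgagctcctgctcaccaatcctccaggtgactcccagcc
Of the 3, Defa23 had 20813 CPM per kb in tdTom+, Defa21 had 3561 and Defa28 had 52.1, and all 3 rose by a log2 fold change of over 7. The letters are a description of the windows and were not tested against the levels.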

How the data were processed

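RNA of EpCAM+tdTom+ and EpCAM+tdTom- cells from 8 mice was sequenced by the authors as stranded mRNA libraries with 50-base single-end reads. The deposited values are raw counts of reads per gene, which the authors made with featureCounts, per the file headers on the reverse strand, over exons and with primary alignments only. The submitters' processing notes name TopHat2 2.1.1 and GRCm38.p3. How reads with several equal alignments were placed is not given in the sources used here.

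Symbols came from GENCODE M21, which held 44671 of the 45513 gene IDs. Genes were kept by filterByExpr, scaled by TMM and compared with edgeR 4.0.16 (R 4.3.3) by the quasi-likelihood test over all 15323 genes kept, without a block, at a Benjamini-Hochberg adjusted p below 0.01. The script was tested on simulated data. Fold changes are tdTom+ over tdTom-, and replicates are the 8 mice. The fractions of a mouse are paired, per the labels, and deviated together (mean correlation 0.426, lowest 0.245), so a fit with the mouse as a block was an alternative, beside DESeq2 1.42.0, other scalings, no filter and leaving out each mouse. Binomial intervals cover counting error only.

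The members and lists were chosen with earlier results of these data known. Named members were the most abundant per kb, those with the largest and smallest fold changes, the most variable shares and those not called. The 6 members of the variable families were chosen after their values were seen. The 19 genes under the count minimum were left out.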

Additional observations from a re-analysis of the deposited data

Results flagged for a closer look

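In 7 of 66 sets of 8 values the highest library lay apart from the other 7 by more than Dixon's 95% limit, which chance does in about 1 in 20 sets. In 6 of them it was the tdTom+ library of mouse 7, and these sets share that library and, in part, reads. The cluster sum was 211054 CPM there, against 76853 to 132567 in the others. Defa24 was at 50826 CPM (others 17131 to 31105), Defa30 at 28276 (9528 to 16452) and Defa17 at 17665 (6205 to 11522). Defa34 stood at 2243 CPM (others 796 to 1249) and Defa22 at 2896 (904 to 1666). In the same library Lyz1 was highest, at 41688 CPM, the goblet marker Zg16 was lowest, at 29061 CPM, and the goblet marker Spink4 highest, at 2967 CPM. The sum of 8 absorptive markers was lowest there, at 1561 CPM, and that of 8 enteroendocrine markers highest, at 2916 CPM. The part of this library's mixture of cells was not tested. Without mouse 7 all 35 members were still called. In the remaining set, the pseudogene Defa-ps17 in tdTom-, mouse 8 had 0.0422 CPM, which is 1 count, and the others had 0.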

How the results depend on the processing

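In all alternatives run 35 members were called higher, except under DESeq2 and without the filter, where 37 were called, the same 35 with Defa-ps8 and Gm15313. The replicate block by mouse called 35, with a median log2 fold change of 7.37, and changed no member's call; of the companions it added Reg3g and Tcf7l2. Without mouse 3 the median of all genes shifted to 0.115. Leaving out each mouse gave 35 to 35 members, the same ones each time, 7005 to 8023 genes differing, a log2 ratio of the cluster sum of 7.25 to 7.53, 16 to 17 companions and 10 to 13 neighbours. The cluster sum was 7.41 with the relative log expression size factors of edgeR, 7.33 with total counts and 7.40 with AY761184 added, an alternative chosen after seeing the data. With a log2 fold change of at least 1 required, 3434 genes differed in place of 7606 and 8 neighbours in place of 13. Beta-defensins called were 1 under DESeq2 and 1 without the filter, in place of 0, since Defb1 then enters the test. Values near 0 changed sign without 1 mouse: log2 fold changes ran from -0.0823 (without mouse 5) to 0.251 for Gm15309, from -0.00959 (without mouse 6) to 0.161 for Nod2 and from -0.120 to 0.0412 (without mouse 3) for Ripk2, which was also above 0 without mouse 6, at 0.0153, and the cause was not tested. Ephb2 lost its call in 8 of its alternatives, with an adjusted p of 0.0322 under total counts (edgeR). Depth limits the members with under 10 counts in tdTom-, and shared sequence limits all single members with few unique stretches.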
